A study of Mus musculus with 8 samples.

Results

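The genes described here encode the proteins that anchor, carry, cleave or phosphorylate SAP97, the scaffold protein made from the Dlg1 gene, together with the other subunits of the kinase that phosphorylates it. The 9 genes were chosen by symbol for these roles and not by their values, though with earlier results of these data known. They were the anchoring protein gene Akap5, the motor genes Myo6, Kif1b and Kif13b, and the protease gene Adam10. They also included the 4 genes of the calcium/calmodulin-dependent protein kinase II (CaMKII), Camk2a, Camk2b, Camk2d and Camk2g. All 9 were among the 25834 genes of the deposited table, and all 9 were among the 16251 genes with enough reads to be tested. RNA was sequenced from the hippocampus of 4 control and 4 SAP97-cKO male mice, with 1 library for each mouse. SAP97-cKO mice were SAP97fl/fl, with both Dlg1 alleles floxed, and carried Cre under the Nestin promoter, which is active in the progenitors of neurons and glia, so the deletion is not limited to neurons. According to the methods, controls were littermates that were wild type or carried Cre alone (Nes-cre+/-) or the floxed alleles alone (SAP97fl/fl). Which of these each control library was, and the age of the sequenced mice, were not given in the sources used here.

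SAP97 takes AMPA and NMDA receptors through the secretory pathway toward the synapse, and its partners act on that route. The protein of Akap5 holds protein kinase A, protein kinase C and calcineurin close to receptor complexes and binds SAP97 directly. Myosin VI, from Myo6, is an actin motor that walks toward the minus end and takes part in endocytosis and in the delivery of AMPA receptors, while the kinesins from Kif1b and Kif13b run along microtubules, and the Kif13b kinesin was first described through its binding to SAP97. ADAM10 cuts the extracellular part of synaptic membrane proteins, and SAP97 takes it to the postsynaptic membrane. CaMKII is a ring-shaped kinase abundant in the postsynaptic density, where calcium entering through NMDA receptors turns it on, and it phosphorylates SAP97. The alpha and beta subunits (Camk2a and Camk2b) are the brain's main forms, and the delta and gamma subunits (Camk2d and Camk2g) are made in most tissues. Each of these is a statement about proteins, and the data here are RNA.

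The 4 CaMKII genes are paralogs, and all of them encode the site at which the kinase phosphorylates itself and stays active after calcium has fallen. The segments of 3 of them, from GENCODE M21 transcripts on GRCm38, are shown around that site because they tell how far short reads can separate the genes (the Camk2a segment was compared but is not printed): each is a stretch of 63 coding bases within 1 exon, with the threonine codon of that site (codon 287) in capitals. Camk2b is read from the minus strand at chr11:5988967-5989029, Camk2d from the plus strand at chr3:126797711-126797773 and Camk2g from the minus strand at chr14:20760409-20760471.
Camk2b: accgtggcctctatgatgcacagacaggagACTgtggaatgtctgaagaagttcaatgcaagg
Camk2d: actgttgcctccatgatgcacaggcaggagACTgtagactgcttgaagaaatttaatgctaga
Camk2g: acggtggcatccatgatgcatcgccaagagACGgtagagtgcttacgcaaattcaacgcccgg
The Camk2b and Camk2d segments differed at 12 of 63 bases, Camk2b and Camk2g at 20, and Camk2d and Camk2g at 18. Camk2a was closest to Camk2b, with 8 of 63 bases different, and differed from Camk2d at 13 and from Camk2g at 20. Over the aligned coding sequence, identity between pairs of the 4 genes ran from 76.6% (Camk2a and Camk2g) to 79.6% (Camk2a and Camk2b). The longest run of bases shared exactly between transcripts of any pair was 34 bases (Camk2a with Camk2b, and Camk2a with Camk2d). Of the motors, Kif1b shared a run of up to 33 bases with Kif1a and Kif13b a run of up to 19 bases with Kif13a. None of the 9 genes shared exon bases with another annotated gene. Reads shorter than the shared runs could be assigned to the wrong paralog, and how the counting treated such reads was not examined here.

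Dlg1 itself checks the labels. It had 4128, 4550, 3983 and 4691 normalized counts (deposited counts scaled by the TMM method of edgeR) in control libraries 1 to 4 and 2353, 3065, 2144 and 2009 in SAP97-cKO libraries 1 to 4. The groups did not overlap, and the SAP97-cKO mean was 55.2% of the control mean, with a log2 fold change (SAP97-cKO over control) of -0.86 ± 0.12 (SE; edgeR quasi-likelihood test, adjusted p = 0.143). The call was lost without control 2 (adjusted p = 0.424), without SAP97-cKO 3 (0.524), without SAP97-cKO 4 (0.346) and with marker covariates for neurons (0.755), oligodendrocytes (0.717) or meningeal fibroblasts (-0.44, 0.991). The 55.2% is of counts over the whole Dlg1 gene and does not measure how complete the deletion was. For the exon used to check the knockout, the paper reports a far larger fall in reads. It also reports less SAP97 protein in the hippocampus of SAP97-cKO mice. Libraries held 37388177 to 37426572 counts each. Markers of hippocampal excitatory neurons (Slc17a7, Neurod6 and, for dentate granule cells, Prox1) were present in every library, and none of the markers used here was at 0 in any library. The libraries did not all group by genotype in their cell type markers. Summed counts of 7 oligodendrocyte markers were 215965, 320545, 292352 and 346248 in controls 1 to 4 and 303905, 179150, 183339 and 167837 in SAP97-cKO 1 to 4, and 5 of the 7 genes were lower at an unadjusted p under 0.05 (0 past the FDR threshold, all 7 below 0, median log2 fold change -0.47). By these sums control 1 lay with the lower SAP97-cKO libraries and SAP97-cKO 1 with the higher controls. Summed counts of 9 meningeal fibroblast markers were 9168 to 17025 in controls and 5812 to 9324 in SAP97-cKO libraries. Of the 9 genes, 5 passed the test as lower, against 0.283% of all tested genes. That count is not independent support, since the list was chosen with earlier results of these data known. Its genes Col1a2, Col3a1, Ogn, Slc6a13 and Aldh1a2 are among those the paper lists as differing in these same libraries. Summed choroid plexus markers varied most, from 6339 to 250756 in controls and from 3658 to 86328 in SAP97-cKO libraries. Inhibitory neuron markers (1 of 6 lower at an unadjusted p under 0.05), astrocyte markers (2 of 6 higher), microglia markers (0 of 6) and endothelial markers (0 of 6) included 0 genes past the FDR threshold. Over all tested genes 4.73% were higher and 7.01% lower at that unadjusted p.

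None of the 9 genes passed the test between genotypes in edgeR, at the study's threshold of an FDR under 0.25. Over all tested genes the same rule called 48 of 16251, or 0.295%. Camk2a and Akap5, both higher on average in SAP97-cKO hippocampi, had an unadjusted p under 0.05, which makes 2 of 9 higher and 0 of 9 lower, where all tested genes gave 4.73% higher and 7.01% lower. In 0 of 9 genes were the groups free of overlap, against 6.25% of all tested genes. In 6 of the 9 genes the log2 fold change was above 0, with a median of 0.16, while it was above 0 in 47.2% of all tested genes, whose median was -0.01. DESeq2, which called 6.36% of all genes at the same FDR, called 1 of the 9, Camk2a. Leaving out 1 library gave a call for Akap5 (without control 1), where 10.2% of all genes were called, and for Kif13b (without SAP97-cKO 1), where 4.32% were. In whole tissue, fewer cells of a type and less RNA per cell cannot be told apart.

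**Figure D1:**
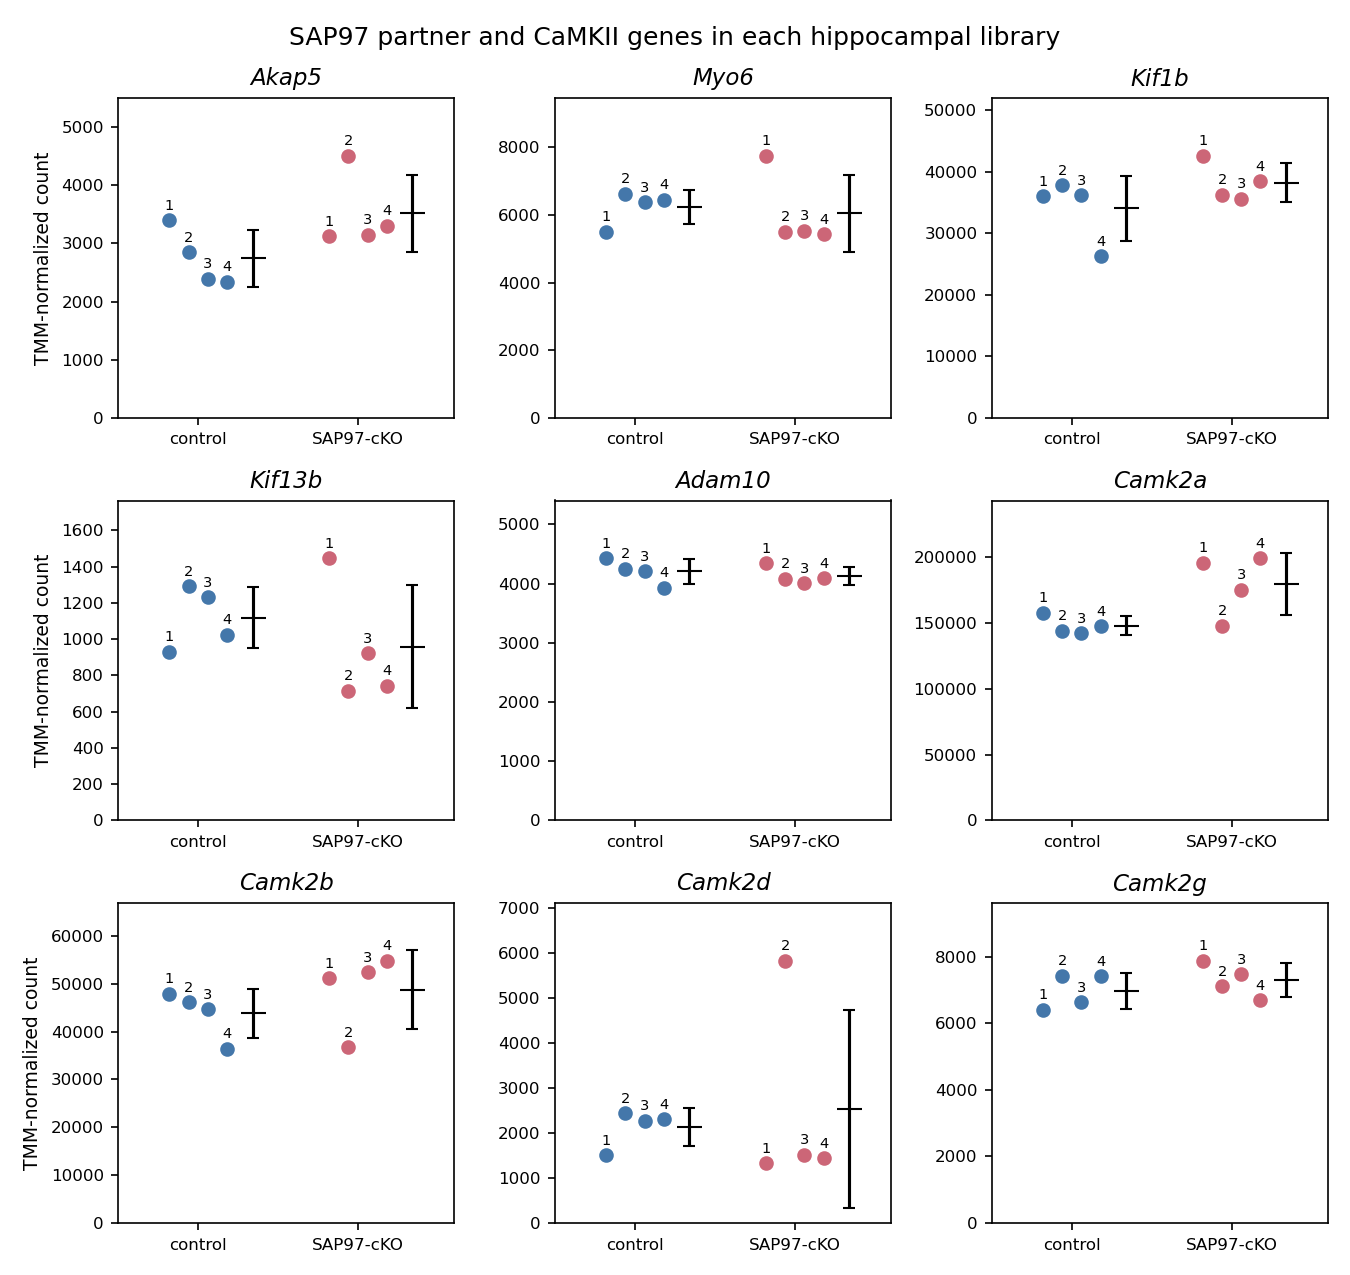
TMM-normalized counts (vertical axes, from 0) of the 9 genes in each library, with control libraries in blue, SAP97-cKO libraries in red, the library number above each point, and the mean ± SD of the 4 libraries in black. The groups overlap in all 9 panels, and SAP97-cKO 2 is far above the other libraries for Camk2d (5835) and the highest for Akap5 (4505).

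Camk2a (ENSMUSG00000024617, GRCm38 chromosome 18, 60925618 to 60988152, plus strand) was the most abundant of the genes and was higher on average in SAP97-cKO hippocampi, without passing the test. Its normalized counts were 157830, 144069, 142068 and 147529 in controls 1 to 4 and 195664, 147953, 175207 and 199073 in SAP97-cKO 1 to 4. SAP97-cKO 1, 3 and 4 were above all controls, and SAP97-cKO 2 lay among the controls, below control 1. The means were 147874 ± 7010 and 179474 ± 23509 (SD, n = 4 each), or 121% of control. The log2 fold change was 0.28 ± 0.10 (SE, 95% interval 0.05 to 0.51; edgeR, unadjusted p = 0.023, adjusted p = 0.374). The exact two-sided permutation test over the 70 assignments of libraries gave p = 0.0571. DESeq2 put the gene past the threshold (log2 fold change 0.28, adjusted p = 0.152). The excitatory neuron marker Slc17a7, a vesicular glutamate transporter, had a log2 fold change of 0.24 ± 0.09 (adjusted p = 0.376 from edgeR). It was the only 1 of the 5 excitatory neuron markers at an unadjusted p under 0.05. Neurod6 gave 0.10 ± 0.13 and Prox1 0.02 ± 0.25, and the median of the 5 was 0.12. The summed excitatory neuron markers were 63103 to 75211 in controls and 72014 to 86461 in SAP97-cKO libraries. With the mean level of neuron markers as a covariate Camk2a gave 0.24, with that of oligodendrocyte markers 0.29, and with that of meningeal fibroblast markers, whose mean log2 level did not overlap between genotypes although their summed counts did, -0.04 ± 0.21.

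Camk2b, whose subunit tethers the kinase to actin, had a wider spread and no detectable difference. It had 47883, 46114, 44675 and 36436 normalized counts in controls and 51112, 36705, 52441 and 54811 in SAP97-cKO libraries. Control 4 and SAP97-cKO 2 were both low, and the other SAP97-cKO libraries were above all controls. Between genotypes the log2 fold change was 0.16 ± 0.13 (SE, 95% interval -0.14 to 0.45; edgeR, adjusted p = 0.638). Without SAP97-cKO 2 it was 0.27 ± 0.10 (adjusted p = 0.396), without control 4 it was 0.08, and it was -0.09 with the meningeal fibroblast covariate and 0.02 with the neuron covariate.

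Camk2d was the gene in which 1 library decided the comparison. It had 1510, 2435, 2272 and 2303 normalized counts in controls 1 to 4 and 1326, 5835, 1521 and 1442 in SAP97-cKO 1 to 4. SAP97-cKO 2 was above every other library, while the remaining SAP97-cKO libraries were at the level of control 1 and below controls 2 to 4. With all 8 libraries the log2 fold change was 0.25 ± 0.44 (SE, 95% interval -0.73 to 1.23; edgeR, adjusted p = 0.834). With the meningeal fibroblast covariate it was 1.603 ± 0.675 (unadjusted p = 0.0399, adjusted p = 0.991 from edgeR). It was 0.574 ± 0.579 with the neuron covariate, 0.381 ± 0.396 with the choroid plexus covariate and 0.051 ± 0.733 with the oligodendrocyte covariate. Without SAP97-cKO 2 it turned to -0.58 ± 0.15 (unadjusted p = 0.00367, adjusted p = 0.353 from edgeR), and limma-voom, with all libraries, gave -0.04. The same mouse was lowest of all 8 for the dentate granule cell marker Prox1, with 2435 normalized counts against 3397 to 5276 in controls and 4757 to 6466 in the other SAP97-cKO libraries. It was also lowest of the 8 for Neurod6, a gene of pyramidal neurons (6610 against 7364 to 9126 in controls). Slc17a7, another excitatory neuron marker, went the other way, with 57201 normalized counts in SAP97-cKO 2 against 44636 to 53470 in controls. The summed excitatory neuron markers of SAP97-cKO 2 (72014) were the lowest of the SAP97-cKO libraries but not of all 8. The mean log2 level of those markers was -0.19 from the mean of the 8 libraries, and only control 4 was lower (-0.22). The part of these neuron markers in the Camk2d value was not tested.

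Camk2g differed little between libraries. Its normalized counts were 6403, 7434, 6639 and 7414 in controls and 7879, 7116, 7472 and 6687 in SAP97-cKO libraries, so the groups overlapped, with SAP97-cKO 1 and 3 above all controls and control 1 below all SAP97-cKO libraries. The genotypes differed by 0.06 ± 0.08 on the log2 scale (SE, 95% interval -0.11 to 0.24; edgeR, adjusted p = 0.742), and by 0.03 to 0.11 as single libraries were left out (lowest without control 1 and SAP97-cKO 1, highest without SAP97-cKO 4). The value was 0.17 ± 0.07 with the neuron covariate (unadjusted p = 0.0329, adjusted p = 0.979 from edgeR), 0.19 ± 0.07 with the oligodendrocyte covariate (0.0264 and 1.00), 0.16 with the meningeal fibroblast covariate and 0.02 without scaling.

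The make-up of CaMKII was compared within each library, since a share does not depend on how libraries are scaled. Shares were taken from counts per kb of merged exons. Camk2a made up 76.8% ± 1.61 of the 4 genes in controls and 78.5% ± 0.948 in SAP97-cKO hippocampi (SD, n = 4 each). Camk2b made up 18.6% ± 1.77 and 17.4% ± 1.24, and Camk2g 4.24% ± 0.449 and 3.76% ± 0.540. Camk2d made up 0.370% ± 0.0840 and 0.405% ± 0.417, a share that depends on the length used: from plain counts it was 1.07% and 1.17%. The differences (SAP97-cKO minus control) were 1.64 percentage points for Camk2a, -1.20 for Camk2b, -0.47 for Camk2g and 0.035 for Camk2d, and none passed the test (exact two-sided permutation tests, p = 0.143, 0.286, 0.229 and 1, and 0.381, 0.381, 0.381 and 1 after Benjamini-Hochberg adjustment over the 4 shares). In SAP97-cKO 2 the Camk2d share was 1.03%, and in the other SAP97-cKO libraries it was 0.178% to 0.222%, below all controls (0.244% to 0.423%). The 4 genes together had 200753 ± 8985 normalized counts in controls and 238061 ± 29058 in SAP97-cKO libraries (119%, exact permutation p = 0.0857), or 0.585% of all counts.

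**Figure D2:**
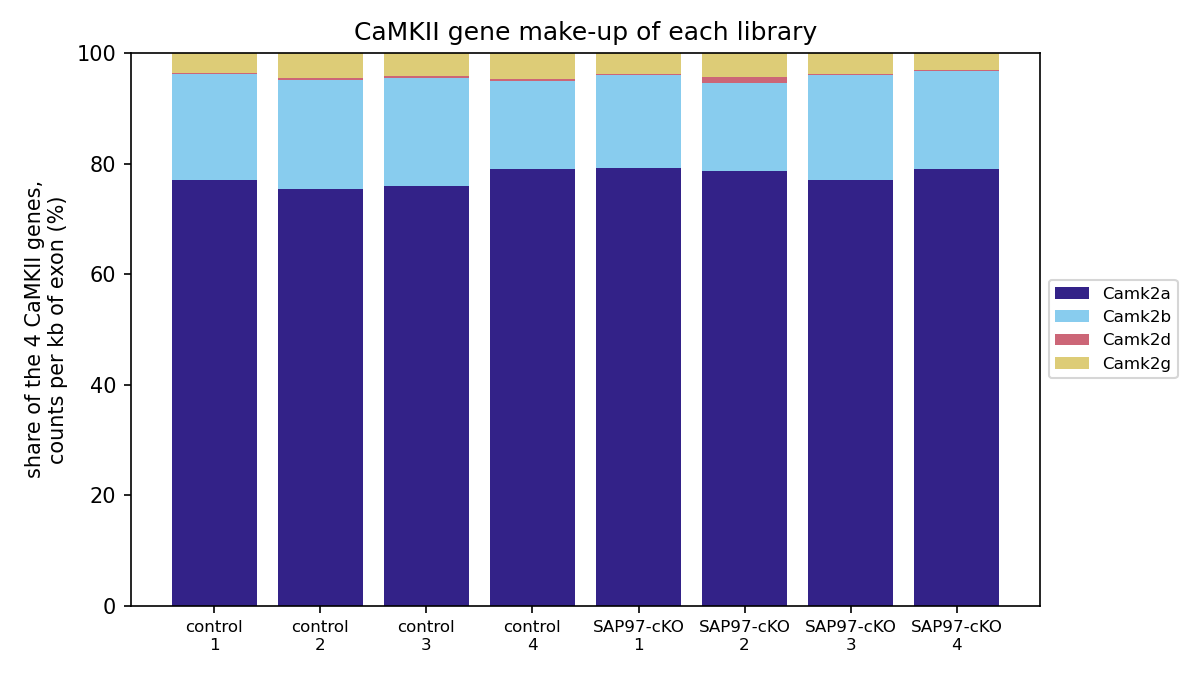
Share of each of the 4 CaMKII genes in their summed counts per kb of merged exons (vertical axis, percent), 1 stacked bar for each library. Camk2a takes 75.3% to 79.2% of every bar, and the thin Camk2d band is widest in SAP97-cKO 2 (1.03%).

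Akap5 (ENSMUSG00000021057, chromosome 12, 76324891 to 76334153, plus strand) was higher on average in SAP97-cKO hippocampi but overlapped with controls. It had 3397, 2849, 2391 and 2340 normalized counts in controls 1 to 4 and 3126, 4505, 3147 and 3301 in SAP97-cKO 1 to 4. SAP97-cKO 2 was well above the rest, and control 1 was above the other 3 SAP97-cKO libraries. The means were 2744 ± 491 and 3520 ± 662 (SD, n = 4 each), or 128% of control, with a log2 fold change of 0.36 ± 0.15 (SE, 95% interval 0.03 to 0.69; edgeR, unadjusted p = 0.0341, adjusted p = 0.400). The exact permutation p was 0.114. Without SAP97-cKO 2 the log2 fold change was 0.22 (adjusted p = 0.493), and without control 1 it was 0.48 and passed the threshold (adjusted p = 0.195, edgeR). It was 0.84 with the meningeal fibroblast covariate and 0.16 with the oligodendrocyte covariate.

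The enzymes that AKAP5 holds in place did not pass the test either (0 of 17). At an unadjusted p under 0.05, 2 were higher and 0 lower, where all tested genes gave 4.73% higher and 7.01% lower. Prkcb, which encodes protein kinase C beta, had a log2 fold change of 0.25 ± 0.10 (SE; edgeR, adjusted p = 0.396). It ran from 13021 to 17894 normalized counts in controls and from 17908 to 20848 in SAP97-cKO libraries, so that the groups did not overlap, though by a narrow margin. While 47.2% of all tested genes had a log2 fold change above 0, 16 of the 17 did, with a median of 0.09. The one below 0 was Prkar2a, a regulatory subunit of protein kinase A, at -0.02 (named after its value was seen).

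Other A-kinase anchoring protein genes had log2 fold changes in both directions. Of 13 genes, 12 were in the table and 11 were tested, 0 of them past the threshold. At an unadjusted p under 0.05, where all tested genes gave 4.73% higher and 7.01% lower, 3 were higher and 2 lower. The higher ones were Akap1, which anchors protein kinase A at mitochondria (0.15 ± 0.06), Akap11 (0.22 ± 0.09) and Akap6, an anchor at the nuclear envelope (0.26 ± 0.12). The lower ones were Akap12 (-0.33 ± 0.11, 908 to 1221 normalized counts in controls and 721 to 935 in SAP97-cKO libraries) and Akap2 (-0.77 ± 0.31), which was near the limit of detection at 14.6 to 25.3 and 7.96 to 12.2 normalized counts. The adjusted p of these 5 genes ran from 0.347 (Akap12) to 0.421 (Akap6) in edgeR.

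Of the motors, Myo6 did not differ detectably and had 1 high library. Its normalized counts were 5504, 6620, 6371 and 6452 in controls and 7746, 5497, 5524 and 5424 in SAP97-cKO libraries. SAP97-cKO 1 was above all controls, and the other 3 SAP97-cKO libraries were level with control 1, the lowest control. Genotypes differed by -0.04 ± 0.12 on the log2 scale (SE, 95% interval -0.31 to 0.22; edgeR, adjusted p = 0.898). The libraries high in oligodendrocyte markers (controls 2 to 4 and SAP97-cKO 1) were also those high in Myo6. With the oligodendrocyte covariate, which was added after seeing the data, the log2 fold change was 0.20 ± 0.07 (adjusted p = 1.00, edgeR), with the neuron covariate it was 0.13, and without SAP97-cKO 1 it was -0.18.

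Kif13b also had its highest value in SAP97-cKO 1, on a lower level of counts. It had 931, 1291, 1231 and 1024 normalized counts in controls and 1447, 716, 924 and 742 in SAP97-cKO libraries. Apart from SAP97-cKO 1, the SAP97-cKO libraries were below every control, 924 in SAP97-cKO 3 by a narrow margin. Over all libraries the log2 fold change was -0.23 ± 0.21 (SE, 95% interval -0.69 to 0.24; edgeR, adjusted p = 0.662). Without SAP97-cKO 1 it was -0.49 ± 0.14 and passed the threshold (adjusted p = 0.216, edgeR), without SAP97-cKO 2 it was -0.11, without SAP97-cKO 4 -0.12 and without control 2 -0.15. With the oligodendrocyte covariate, added after seeing the data, it was 0.15 ± 0.16, and with the neuron covariate 0.01. Beyond these fits, the part of oligodendrocyte content in the Kif13b values was not tested. The gene whose centred log2 CPM (log2 of the count scaled to library size, minus the mean of the 8 libraries) was nearest to that of Kif13b among all tested genes was Myrf, a transcription factor of myelinating oligodendrocytes, with a root mean square difference of 0.076.

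Kif1b, a kinesin of the fast axonal class, was even across libraries apart from 1 low control. It had 35964, 37774, 36166 and 26284 normalized counts in controls and 42590, 36248, 35571 and 38431 in SAP97-cKO libraries. Control 4 was well below all others. The log2 fold change was 0.17 ± 0.12 (SE, 95% interval -0.09 to 0.43; edgeR, adjusted p = 0.572), and without control 4 it was 0.06 ± 0.08.

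Other motors were mostly higher on average in SAP97-cKO hippocampi, with 0 of 18 past the threshold, 5 higher and 0 lower at an unadjusted p under 0.05, and 15 with a log2 fold change above 0 (median 0.17). Over all tested genes 4.73% were higher at that p, and 47.2% were above 0. The 5 were the kinesin genes Kif21b (0.32 ± 0.09), Kif1a, which carries synaptic vesicle precursors (0.24 ± 0.08), Kif17, a dendritic motor for NMDA receptors (0.22 ± 0.08), Kif3a (0.22 ± 0.09) and Kif5c (0.16 ± 0.07). Their adjusted p ran from 0.331 (Kif21b) to 0.415 (Kif5c) in edgeR. Groups did not overlap for 5 of the 18 motors, against 6.25% of all tested genes. Kif1a, for instance, had 33780 to 40902 normalized counts in controls and 44176 to 46787 in SAP97-cKO libraries. Among 17 adaptors and cargo partners of these motors, 0 had an unadjusted p under 0.05, and Mapk8ip3, a kinesin adaptor, had the smallest (0.21 ± 0.10, unadjusted p = 0.0545, adjusted p = 0.430 from edgeR). Of the 8 neuron markers, 5 had a log2 fold change above 0 and 3 below, with a median of 0.03 and 0 past the threshold. At an unadjusted p under 0.05, 2 of these 8 were higher and 0 lower, and for 1 the groups did not overlap. All 5 excitatory neuron markers were above 0 (median 0.12), with 1 higher and 0 lower at that p. The summed neuron markers were 261858 to 290893 in controls and 275222 to 305701 in SAP97-cKO libraries. With the neuron covariate the log2 fold change was 0.27 for Kif21b, 0.18 for Kif1a, 0.12 for Kif17 and 0.10 for Kif3a. That of Kif5c ran from 0.12 to 0.17 over the alternatives that kept all 8 libraries. Beyond these fits, the part of neuronal content in the motor values was not tested.

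Adam10 varied least of the 9 genes over the 8 libraries (root mean square deviation of log2 CPM from its mean, 0.055). Its normalized counts were 4428, 4248, 4207 and 3931 in controls and 4347, 4080, 4008 and 4092 in SAP97-cKO libraries, a coefficient of variation of 4.89% and 3.59%. All SAP97-cKO libraries lay within the range of the controls. The log2 fold change was -0.02 ± 0.06 (SE), and its 95% interval, -0.16 to 0.11, was the narrowest of the 9 (edgeR, adjusted p = 0.884).

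Regulators, relatives and substrates of ADAM10 comprised 22 genes, of which 20 were tested and 0 passed the threshold. Of these, 3 were higher and 1 lower at an unadjusted p under 0.05, where all tested genes gave 4.73% higher and 7.01% lower. The synaptic adhesion gene Nlgn1, a substrate of ADAM10, had 3312, 3190, 3027 and 2749 normalized counts in controls and 3655, 3826, 3622 and 4067 in SAP97-cKO libraries. Every SAP97-cKO library was above every control, and the log2 fold change was 0.31 ± 0.07 (SE; edgeR, unadjusted p = 0.00181, adjusted p = 0.302). DESeq2 put it past the threshold (adjusted p = 0.0262). The substrates Cx3cl1, a membrane-bound chemokine of neurons (0.22 ± 0.08), and Cdh2, or N-cadherin (0.15 ± 0.07), were the other 2 higher genes (adjusted p = 0.371 and 0.425 from edgeR). Timp3, a secreted inhibitor of metalloproteases, was lower (-0.38 ± 0.12, adjusted p = 0.347 from edgeR), with 2768 to 4104 normalized counts in controls and 2178 to 2737 in SAP97-cKO libraries. With the meningeal fibroblast covariate the Timp3 value was 0.10 ± 0.20.

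The positive and negative regulators of CaMKII included 0 of 15 genes past the threshold, with a median log2 fold change of 0.00. Over all tested genes 4.73% were higher and 7.01% lower at an unadjusted p under 0.05, and of the 15 genes 0 were higher and 1 lower. That gene was Pcp4, which encodes a small calmodulin-binding protein (-0.45 ± 0.16, adjusted p = 0.368 from edgeR). It had 1721 to 2830 normalized counts in controls and 1392 to 2165 in SAP97-cKO libraries. The inhibitor gene Camk2n1, named for its role, had a log2 fold change of 0.10 ± 0.16 (SE; adjusted p = 0.813 from edgeR).

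**Figure D3:**
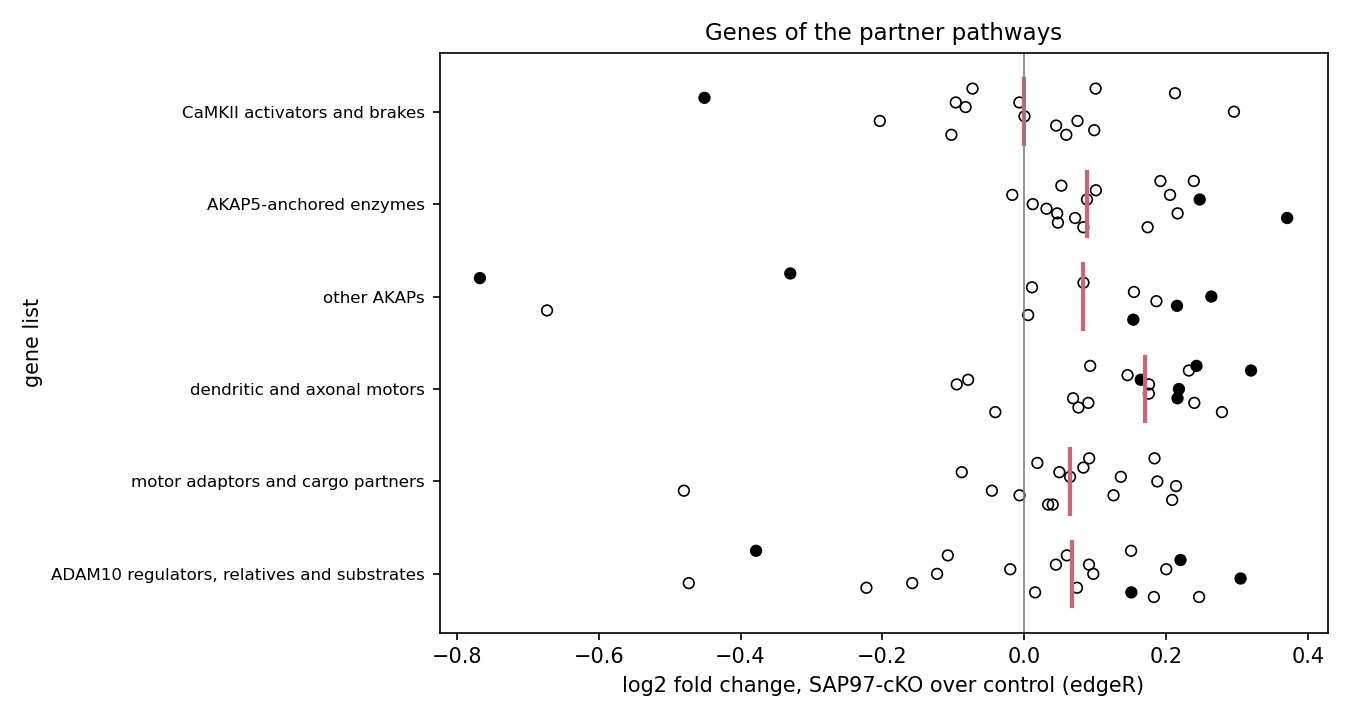
Log2 fold change, SAP97-cKO over control, of every tested gene in 6 lists (horizontal axis; each point is a gene, filled where the unadjusted p is under 0.05, and the red line is the median of the list). The medians run from 0.00 for the CaMKII regulators to 0.17 for the motors, and none of the points passed an FDR of 0.25.

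Levels can be compared between genes only per length. As RPKM (counts scaled to library size and to kb of merged exons), the control means were 530 for Camk2a, 128 for Camk2b, 51.7 for Kif1b, 29.1 for Camk2g, 22.9 for Adam10, 13.8 for Myo6, 10.8 for Akap5, 2.53 for Camk2d and 2.30 for Kif13b. The first 6 kept this order in every library, since their ranges over the 8 libraries did not overlap (for example 21.4 to 24.1 for Adam10 and 12.01 to 17.2 for Myo6). Myo6 and Akap5 (9.17 to 17.7) overlapped, as did Camk2d (1.58 to 6.94) and Kif13b (1.47 to 2.97). Camk2a was at percentile 99.8 of all tested genes with a length and Kif13b at percentile 37.2. With the length of the longest transcript in place of the merged exons the order of the control means was the same, but Myo6 (18.3 to 26.1) and Adam10 (22.9 to 25.8) then overlapped, and the level of Camk2d was 10.3, because its merged exons cover 22493 bp and its longest transcript 5524 bp.

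**Figure D4:**
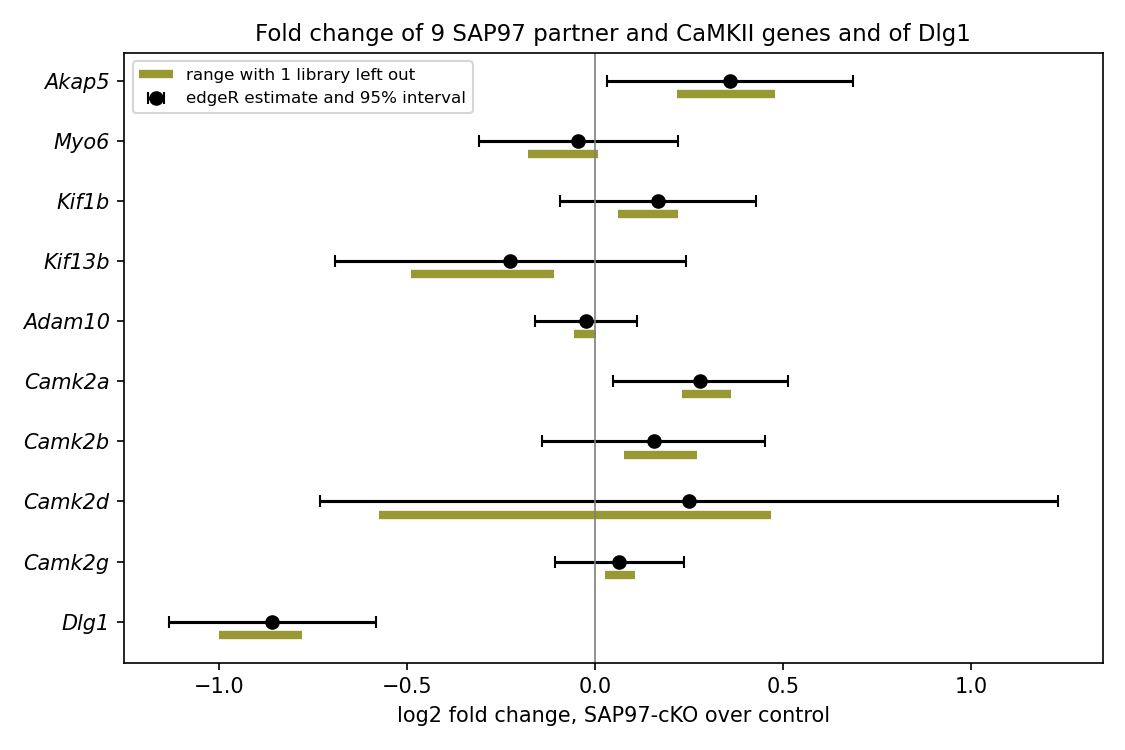
Log2 fold change, SAP97-cKO over control, of the 9 genes and Dlg1 (points, edgeR; bars, 95% interval), with the range of the estimate when each library is left out in turn (olive bars below). The interval of Adam10 is the narrowest and that of Camk2d the widest, and the Camk2d estimate runs from -0.58 to 0.47 as single libraries are left out.

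Across the 8 libraries, each gene's pattern was set beside that of every other tested gene by the root mean square difference of centred log2 CPM, where 0 is an identical pattern. Nearest to Camk2a was RP23-218K15.3 (0.042), a gene with 17.5 to 24.9 normalized counts. Nearest to Camk2b was Arhgef25 (0.044), to Camk2g Tmem161b (0.041), to Akap5 Rims1 (0.087), to Kif1b Pura (0.022), to Adam10 Fnip1 (0.025) and to Myo6 Tmem229a (0.056). For Camk2d the nearest gene, Prkg2, was farther off (0.156). Prkg2, a cGMP-dependent protein kinase gene, had 609 normalized counts in SAP97-cKO 2 and 142 to 273 in the other libraries, so that it shared the single high library of Camk2d.

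**Figure D5:**
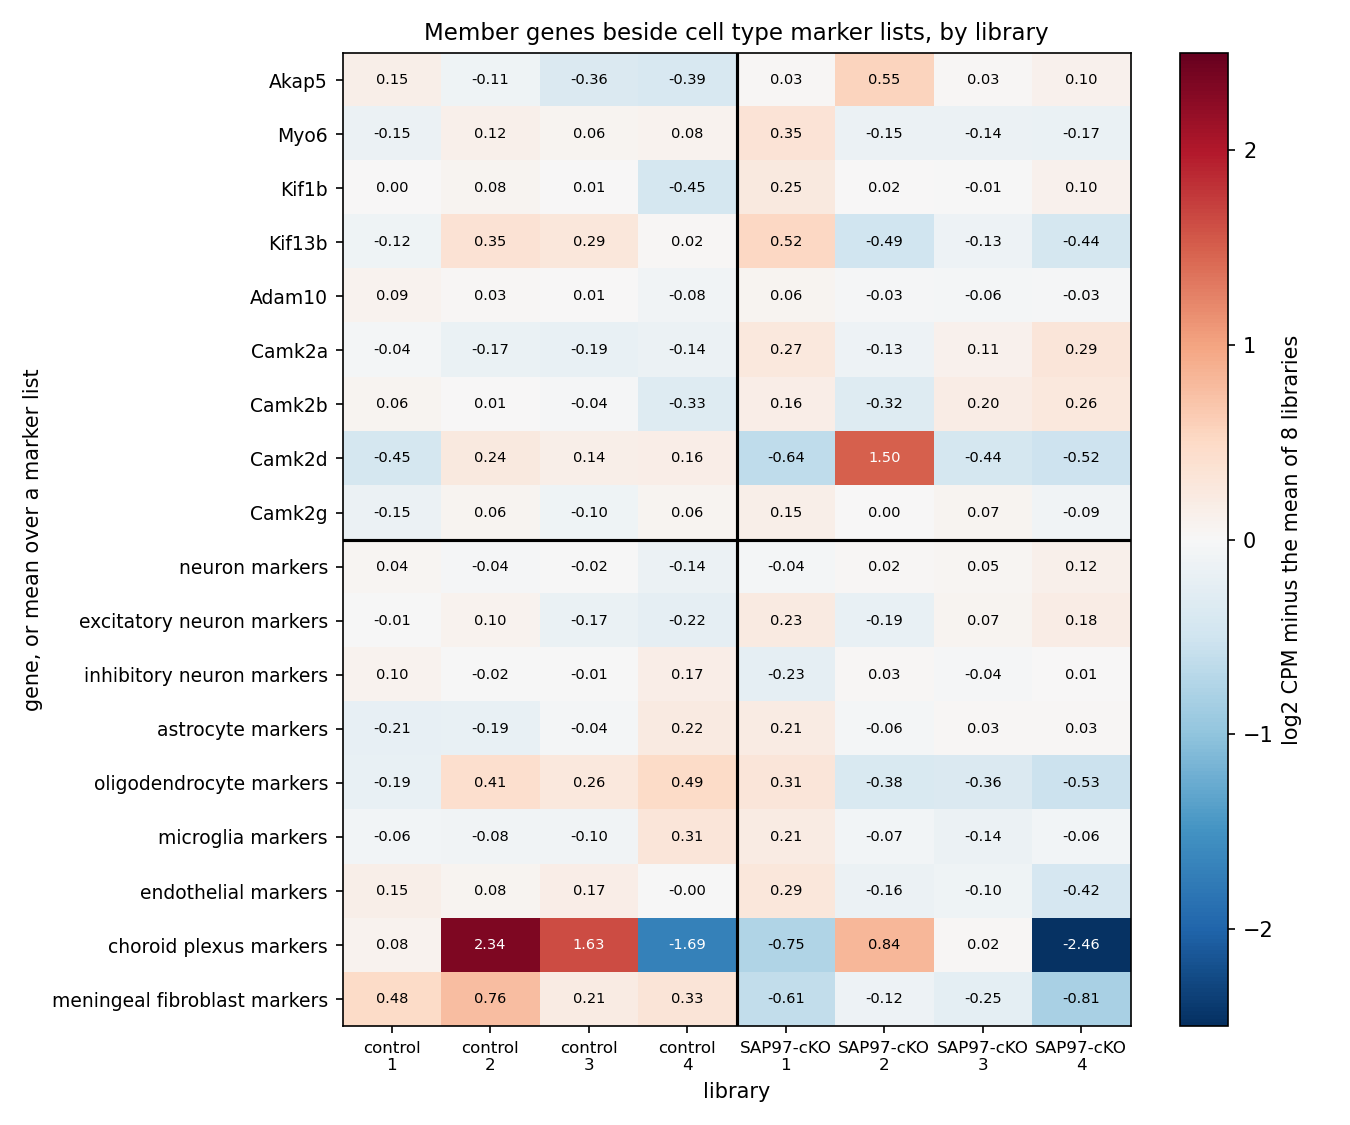
Log2 CPM of each of the 9 genes, and the mean over each cell type marker list, in each library, as the difference from the mean of the 8 libraries (colour and printed value; red is above the mean). Myo6 and Kif13b are above their mean in controls 2 to 4 and SAP97-cKO 1, as the oligodendrocyte markers are. Kif13b is so by only 0.02 in control 4, where the oligodendrocyte markers are highest (0.49). Camk2d stands out in SAP97-cKO 2.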

How the data were processed

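The data are 8 hippocampal RNA libraries, 4 from control and 4 from SAP97-cKO mice, all male. The authors aligned reads with STAR 2.5.3a to mm10 (GRCm38.p5), and their PORT pipeline removed ribosomal and mitochondrial reads, brought libraries to 1 depth by resampling and assigned reads to Ensembl genes. Whether counting was stranded is not given in the sources used here. Deposited values are whole-number counts per gene, 37388177 to 37426572 per library. Columns of the authors' own limma-voom comparison (log2 fold changes, p-values, q-values) were deposited too and not used.

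Genes were kept by filterByExpr (minimum count 10, minimum total 15), scaled by TMM and tested in edgeR 4.0.16 (glmQLFit and glmQLFTest, its quasi-likelihood test; R 4.3.3), with Benjamini-Hochberg adjustment over 16251 genes and an FDR of 0.25. The test was run on simulated counts first. Normalized counts are counts divided by TMM-scaled library size relative to the mean. CaMKII shares and single values were compared by exact two-sided permutation tests (SciPy 1.17.1), whose smallest p is 0.0286. Log2 CPM used a prior count of 2. Gene lengths and coordinates came from GENCODE M21 on GRCm38 (16203 of 16251 tested genes matched).

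The 9 genes, the 6 pathway lists and 9 marker lists were chosen with earlier results of these data known. Genes named one by one are the 9 genes, Dlg1, every gene of a pathway list at an unadjusted p under 0.05 (or the one with the smallest p), and the nearest gene of each of the 9 genes. Some genes of the lists are counted but not reported here by name. Marker genes were named to check the tissue. Alternatives were limma-voom (limma 3.58.1), DESeq2 1.42.0, other scalings and filters, an FDR of 0.05, marker covariates, the replicate number as a block, other gene lengths for shares, and leaving out each library.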

Additional observations from a re-analysis of the deposited data

Results flagged for a closer look

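In 13 of 82 groups of 4 libraries, including 4 of the 18 groups of the 9 genes, 1 library stood so far from the other 3 that its gap exceeded Dixon's 95% critical value for 4 values, which chance alone does in about 1 of 20 groups. The groups are not independent, since the same libraries enter each.

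SAP97-cKO 2 stood apart for Akap5 (4505 normalized counts), Camk2d (5835), Kif21b (2981), Arhgef25 (7031) and Prkg2 (609), and for the Camk2d share (1.03%). It was the high library for all of these except Arhgef25, for which it was the low one. SAP97-cKO 1 was the high library for Myo6 (7746) and Tmem229a (4347), and SAP97-cKO 4 for Akap6 (10450). Control 4 was the low library for Kif1b (26284), Pura (9734) and the Camk2b share (15.96%), and control 1 for the Camk2d share (0.244%). Pura, Tmem229a, Arhgef25 and Prkg2 had been chosen for their likeness to a gene of the 9, so the entries of Pura, Tmem229a and Prkg2 repeat those of Kif1b, Myo6 and Camk2d. The cause was not tested.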

How the results depend on the processing

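Depth does not limit the 9 genes, the lowest of which had 716 normalized counts in a library. The spread between 4 mice does, and a missed threshold does not show that a gene did not differ. Of 171 alternative values for the 9 genes, 156 kept their direction and their side of the threshold, 3 passed it and 12 changed sign. The 171 include settings in which no gene at all was called, where none of the 9 could pass the threshold. A kept direction is not a kept size: the log2 fold change of Akap5 ran from 0.16 to 0.84 over alternatives that left out no library.

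The count of the 9 genes called was 0, and 1 with DESeq2. Over all genes edgeR called 48, against 1033 with DESeq2, 95 without scaling, 104 without the filter, 14 with the choroid plexus covariate and 256 with the replicate block. It called 0 at an FDR of 0.05 and 0 with the meningeal fibroblast, neuron or oligodendrocyte covariate, where 1907, 580, 807 and 693 genes had an unadjusted p under 0.05. Leaving out 1 library gave 0 to 1675 genes and 0 to 1 of the 9 genes. It gave 1675 without control 1, 711 without SAP97-cKO 1, and 0 without control 2, SAP97-cKO 3 or SAP97-cKO 4, where 1403, 1259 and 1167 genes had an unadjusted p under 0.05. Counts of 0 came from edgeR.

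Log2 fold changes that changed sign were those of Myo6 (0.13 with the neuron covariate, 0.20 with the oligodendrocyte covariate, 0.0025 without SAP97-cKO 3 and 0.0083 without SAP97-cKO 4), Kif13b (0.0097 neuron, 0.15 oligodendrocyte), Adam10 (0.0016 without control 1), Camk2a (-0.043) and Camk2b (-0.088) with the meningeal fibroblast covariate, and Camk2d (-0.045 with limma-voom, -0.054 with the replicate block, -0.58 without SAP97-cKO 2). Among other named genes they were those of Timp3 (0.10) and Arhgef25 (-0.044) with the meningeal fibroblast covariate, Tmem229a (0.067 neuron, 0.12 oligodendrocyte), Myrf (0.020 oligodendrocyte), Fnip1 (0.011 without control 1) and Prkg2 (-0.44 without SAP97-cKO 2). With single libraries omitted, log2 fold changes ran from -0.18 to 0.0083 for Myo6, from -0.055 to 0.0016 for Adam10, from -0.58 to 0.47 for Camk2d, from -0.046 to 0.011 for Fnip1 and from -0.44 to 0.58 for Prkg2. The Camk2d share difference turned from 0.035 points to between -0.173 and 0.110 as single libraries were left out, and was -0.0069 without control 1. The causes were not tested.

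Of the single-gene values, 16 newly passed the threshold without control 1, 12 with DESeq2, 5 without SAP97-cKO 1 and 1 with the replicate block. Same-numbered libraries did not deviate together throughout (correlations of -0.062, 0.201, 0.0898 and 0.259), and not every library correlated best with its own number. These correlations cannot decide whether the numbers pair the mice, and the sample titles do not say. With the replicate block 0 of the 9 genes were called, and for the shares the smallest p of a sign-flip test over 4 pairs is 0.125.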
